A study of Mus musculus with 208 samples.

Results

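The clustered protocadherins are neuronal cell adhesion proteins of the cadherin superfamily, encoded in the alpha, beta and gamma gene clusters that lie beside each other in the genome. The genes were taken as every row of the deposited tables whose mouse symbol is an isoform name of Pcdha, Pcdhb or Pcdhg. That gave 24 of 39179 rows: all 22 beta genes, Pcdhb1 to Pcdhb22, and 1 row each for the alpha and gamma clusters, listed under the symbols Pcdha11 and Pcdhgc4. The reference annotation names 57 isoforms, 13 alpha, 22 beta and 22 gamma. The other alpha and gamma names were not analysed as rows of their own.

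In these clusters each neuron transcribes only some of the isoforms, and which promoters are used is set by DNA methylation, by the DNA-binding protein CTCF and by the cohesin complex that forms chromatin loops. Isoform proteins on neighbouring membranes bind like to like, and this recognition lets the processes of 1 neuron avoid each other. An alpha or gamma isoform is made by splicing a variable first exon to constant exons shared by the whole cluster, whereas each beta gene is a single exon with no shared part.

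Polyadenylated RNA was measured in the striatum of C57BL/6 mice heterozygous for a knock-in Htt allele, named Q20, Q80, Q92, Q111, Q140 or Q175 after its number of CAG repeats, and of wild types. Striatal projection neurons are the cells most affected in Huntington's disease, a disorder of expanded CAG repeats in HTT, and Q20 has a repeat in the normal human range. There were 208 libraries in 26 groups of 8, all from whole tissue: each knock-in line at 2, 6 and 10 months, wild types caged with Q20 at all 3 ages, and at 6 months also wild types from the cages of each other line. Females and males were 27 and 29 at 2 months, 48 and 48 at 6 months, and 29 and 27 at 10 months. In each line the knock-in allele is carried by every cell of the animal, and the Q20 controls carry a knock-in allele too.

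Total counts ran from 29.1 to 49.6 M per library (M, 1e+06 counts). At 2 months the mitochondrial share of the counts was 17.2 to 24.1% in 7 libraries and 11.4 to 14.9% in the other 49. The 7 were wild type F1, Q111 F2, Q92 M4 and M3, Q80 M5 and Q20 M3 and M2 (F female, M male, with the replicate number). Their median correlation with the other libraries of that age was 0.901 to 0.974, against at least 0.981 in the others. None of them was a Q140 or Q175 library. At the same age 1 library, Q80 M3, did not match its sex label; it was kept among the males, as labelled. Fits described as without the libraries that stood apart leave out this library and the 5 with a median correlation under 0.97.

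The alpha and gamma rows cannot be assigned to the isoforms whose names they bear. The ratio of a row's count to its FPKM (fragments per kilobase of transcript and 1e+06 mapped fragments) gives the transcript length that the authors' quantification used. For the beta genes this length was constant over libraries, with a coefficient of variation of at most 0.00598%. For the alpha row it varied by 1.23% around a median of 5033 bases, and for the gamma row by 0.063% around 4727 bases. A length that changes from library to library is that of a mixture of transcripts, so these rows are described here as the alpha row and the gamma row. In the alpha row the group means of this length lay between 4967 bases in Q175 at 6 months and 5124 bases in Q20 at 2 months.

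The beta genes resemble each other in sequence, and reads that fit several copies were divided among them in the deposited expected counts. The share of libraries with a count that was not a whole number, which marks such division, was 0% for Pcdhb1, 1.92% for Pcdhb15, 4.33% for Pcdhb2 and 4.81% for Pcdhb13. It was 100% for Pcdhb17, 99.5% for Pcdhb9 and Pcdhb20, 99.0% for Pcdhb7 and 98.1% for Pcdhb12. Pcdhb11 had 97.1%, Pcdhb10 95.7%, Pcdhb19 90.9%, Pcdhb6 89.9%, Pcdhb18 68.3% and Pcdhb8 65.4%. Values of genes with a high share are thus less certain as values of a single gene than those of Pcdhb2, Pcdhb13 and Pcdhb15. The share counts libraries and does not tell how many reads of a gene were divided.

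Per unit of length the gamma row was the highest single row, and each beta gene was low on its own. The alpha and gamma rows hold mixtures of transcripts and each beta row a single gene, so this order does not rank the clusters. In wild types caged with Q20 at 6 months the gamma row had 151 ± 3.28 FPKM (SD, n = 8) and the alpha row 19.9 ± 1.11 FPKM. The beta genes followed, from Pcdhb17 at 4.62 ± 0.400 FPKM, Pcdhb20 at 4.01 ± 0.248 and Pcdhb9 at 3.86 ± 0.324 to Pcdhb4 at 0.444 ± 0.0818 and Pcdhb1 at 0.135 ± 0.0520. In this order of 24 rows, the ranges of neighbours overlapped in 18 of 23 cases, so most of the ranking among beta genes is within the spread of the animals. The gaps lay below the gamma row, the alpha row, Pcdhb9, Pcdhb3 and Pcdhb4.

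Most beta genes were higher in the striatum of the long-repeat lines Q111, Q140 and Q175 than in Q20 at 6 and 10 months. The alpha row rose by less, the gamma row was not called in these lines, and Pcdhb8 was lower in Q140 and Q175. The beta genes rose by up to 0.86 on the log2 scale. No member was called in Q80 at any age, and Q92 had 2 calls at 6 months and 5 at 10 months. The summed beta level, a sum of CPM (counts per 1e+06 counts of the scaled library) given with no test, was 145 ± 9.15 CPM in Q20 at 6 months (SD, n = 8), 142 ± 10.0 in Q80 and 144 ± 5.19 in Q92. It was 172 ± 11.7 CPM in Q111, 190 ± 11.6 in Q140 and 183 ± 8.21 in Q175. The 6 wild-type groups of that age had mean sums between 138 and 143 CPM.

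**Figure D1:**
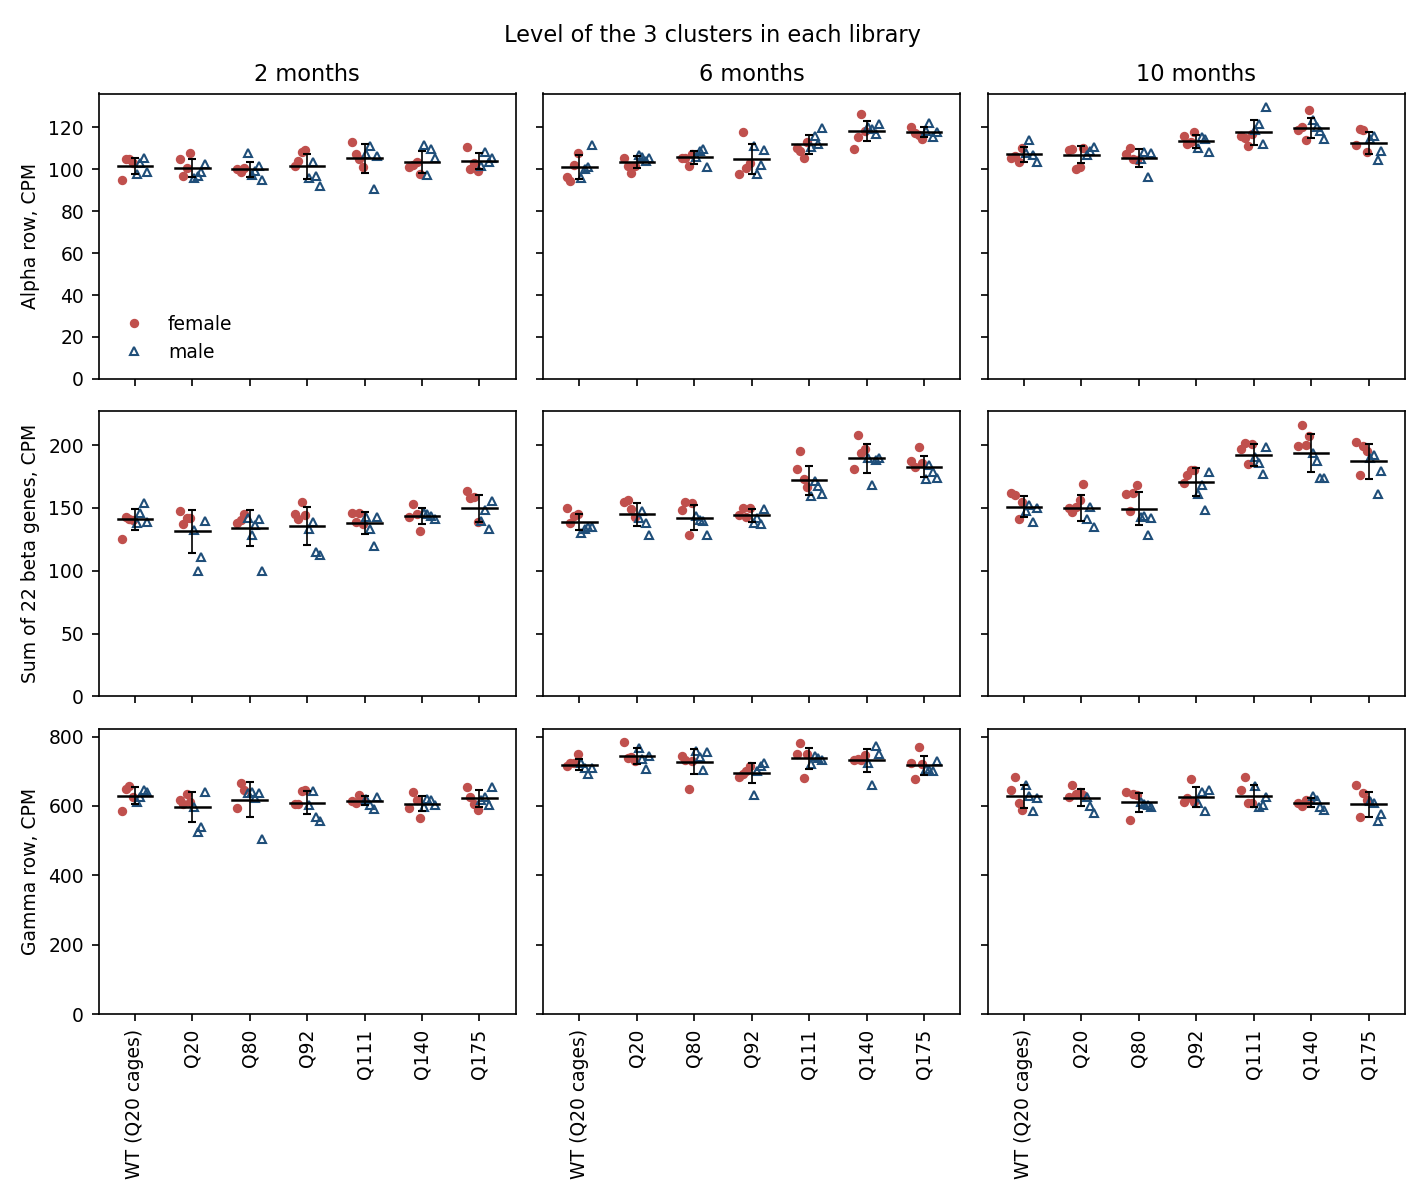
Level of the alpha row, of the sum of the 22 beta genes and of the gamma row in CPM (vertical axis from 0) in each library, by line, at 2, 6 and 10 months. Filled circles are females, open triangles males, lines the mean and bars the SD of 8 libraries; at 6 months the beta sums of Q111, Q140 and Q175 have means of 172, 190 and 183 CPM against 145 CPM in Q20.

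At 10 months the beta sum was 150 ± 10.2 CPM in Q20 (SD, n = 8), 151 ± 8.2 in wild type and 150 ± 13.2 in Q80. Here Q92 was higher too, at 171 ± 11.3 CPM, with Q111 at 192 ± 8.95, Q140 at 194 ± 14.9 and Q175 at 187 ± 13.9. At 2 months the mean sums lay between 131 CPM in Q20 and 150 CPM in Q175. The medians were 138 CPM in Q20, 141 in wild type and 152 in Q175. In Q20 the libraries M2 and M3, of high mitochondrial share, had 99.7 and 110.7 CPM. The group medians of the gamma row were 700 to 749 CPM at 6 months and 608 to 628 CPM at 10 months. Each age is a separate set of animals, and the labels name no sequencing set. Age and any such set therefore cannot be told apart in such levels.

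Each line was tested against Q20 of the same age with edgeR's quasi-likelihood test, with sex as a covariate and Benjamini-Hochberg adjustment over all genes, and a gene was called at an adjusted p under 0.05. At 6 months 16 of the 24 members were called higher in Q111, where 5.37% of all genes tested were called higher and 7.45% lower. In Q140 18 were higher (13.8% of all genes) and 1 lower (14.1% of all genes). In Q175 16 were higher (18% of all genes) and 1 lower (18.2%). The median log2 fold change of the members was 0.26, 0.40 and 0.31 in these 3 lines, beside medians of all genes close to 0, such as 0.0097 for Q175. All 8 libraries lay above all 8 of Q20 for 5 members in Q111 (0.76% of all genes), 11 in Q140 (2.53%) and 10 in Q175 (4.46%).

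At 10 months 16 members were higher in Q111 (5.58% of all genes, and 6.9% lower), 16 in Q140 (10.9%) and 14 in Q175 (12.4%). Pcdhb8 was the 1 member lower in Q140 (11.6% of all genes were lower) and in Q175 (12.1%). The median log2 fold changes were 0.37, 0.35 and 0.34. Groups did not overlap, with the line higher, for 11 members in Q111 (0.961% of all genes), 8 in Q140 (1.65%) and 6 in Q175 (1.97%). Called higher in all 3 lines at both ages were 13 beta genes: Pcdhb2, Pcdhb3, Pcdhb5, Pcdhb9, Pcdhb12, Pcdhb13, Pcdhb15, Pcdhb16, Pcdhb17, Pcdhb19, Pcdhb20, Pcdhb21 and Pcdhb22. The share of all genes that meet this rule was not counted. At most the 947 of 17642 genes called higher in Q111 at 6 months can meet it. Pcdhb1 and Pcdhb11 were called in no line against Q20.

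**Figure D2:**
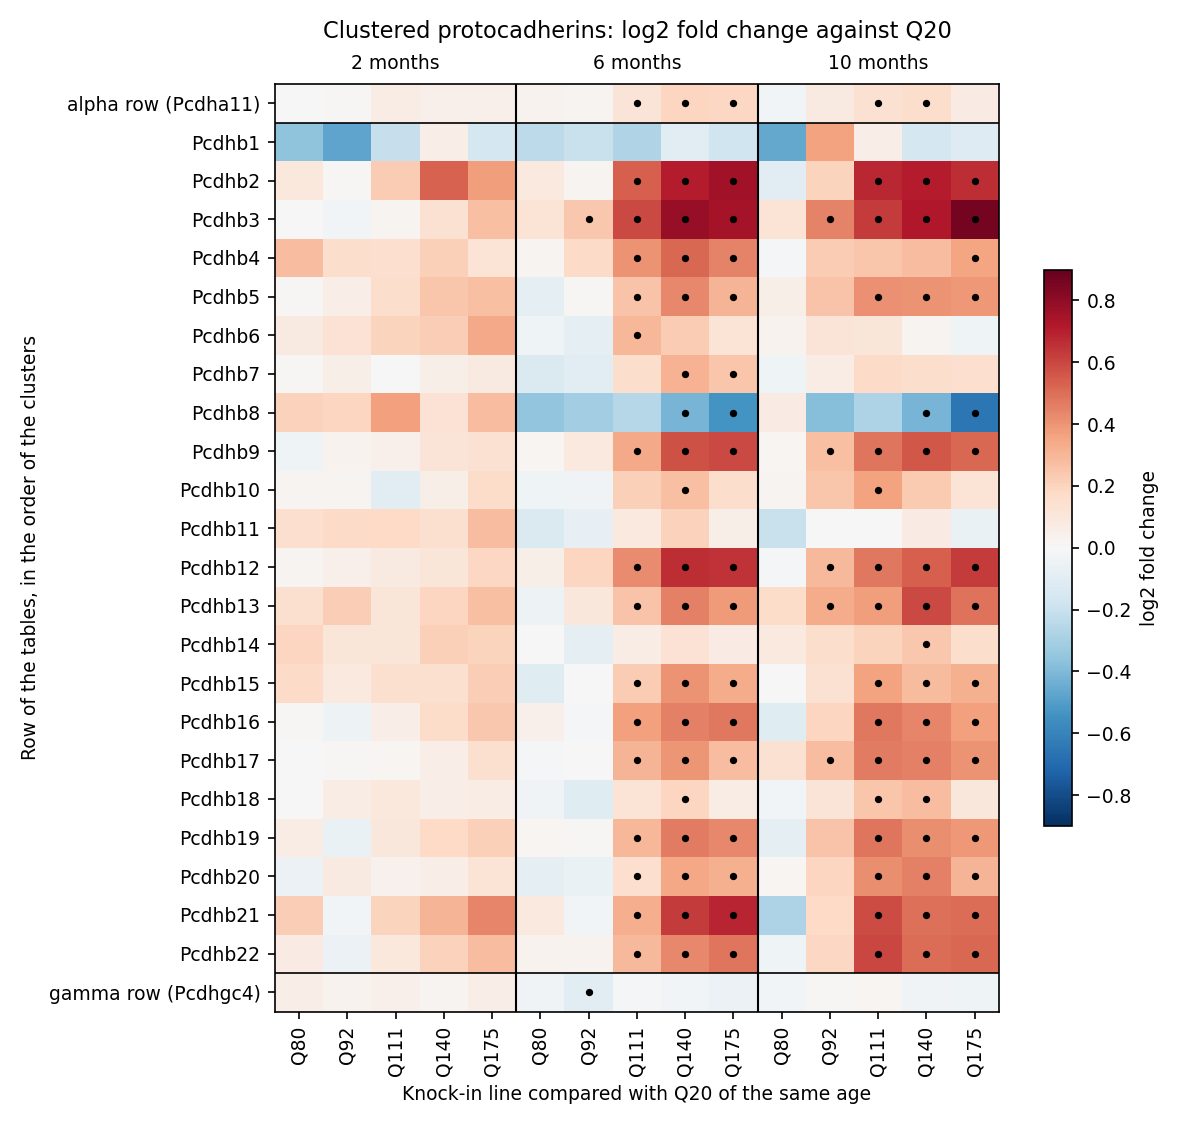
Heat map of the log2 fold change of each of the 24 rows (vertical, in cluster order) in each knock-in line against Q20 of the same age (horizontal), red for higher and blue for lower, with a dot where the adjusted p was under 0.05. The dots fill most of the beta rows in Q111, Q140 and Q175 at 6 and 10 months, the 2-month block has none, and Pcdhb8 is blue at 6 and 10 months.

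Pcdhb3 was called higher in more of the comparisons with Q20 than any other member, 4 lines at each of 6 and 10 months. At 6 months its lowest, median and highest levels were 3.53, 3.87 and 4.37 CPM in Q20, and 3.69, 4.06 and 4.97 CPM in Q80. They were 3.83, 4.63 and 5.42 CPM in Q92, 5.05, 5.88 and 7.04 in Q111, 5.94, 6.99 and 7.19 in Q140 and 5.99, 6.65 and 7.17 in Q175. Every library of Q111, Q140 and Q175 thus lay above every library of Q20. The log2 fold change was 0.60 ± 0.074 (SE) in Q111 (adjusted p = 1.07e-09), 0.79 ± 0.074 in Q140 (adjusted p = 4.83e-15) and 0.75 ± 0.074 in Q175 (adjusted p = 1.78e-14).

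At 10 months Pcdhb3 stood at 3.92, 4.37 and 5.63 CPM (lowest, median, highest) in Q20 and at 5.38, 6.10 and 7.01 CPM in Q92. In Q175 it reached 7.22, 8.02 and 9.46 CPM, again with no overlap with Q20. The log2 fold change was 0.45 ± 0.070 (SE) in Q92 (adjusted p = 5.98e-05) and 0.86 ± 0.070 in Q175 (adjusted p = 1.13e-14), the latter the largest among the members in any of the comparisons with Q20.

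**Figure D3:**
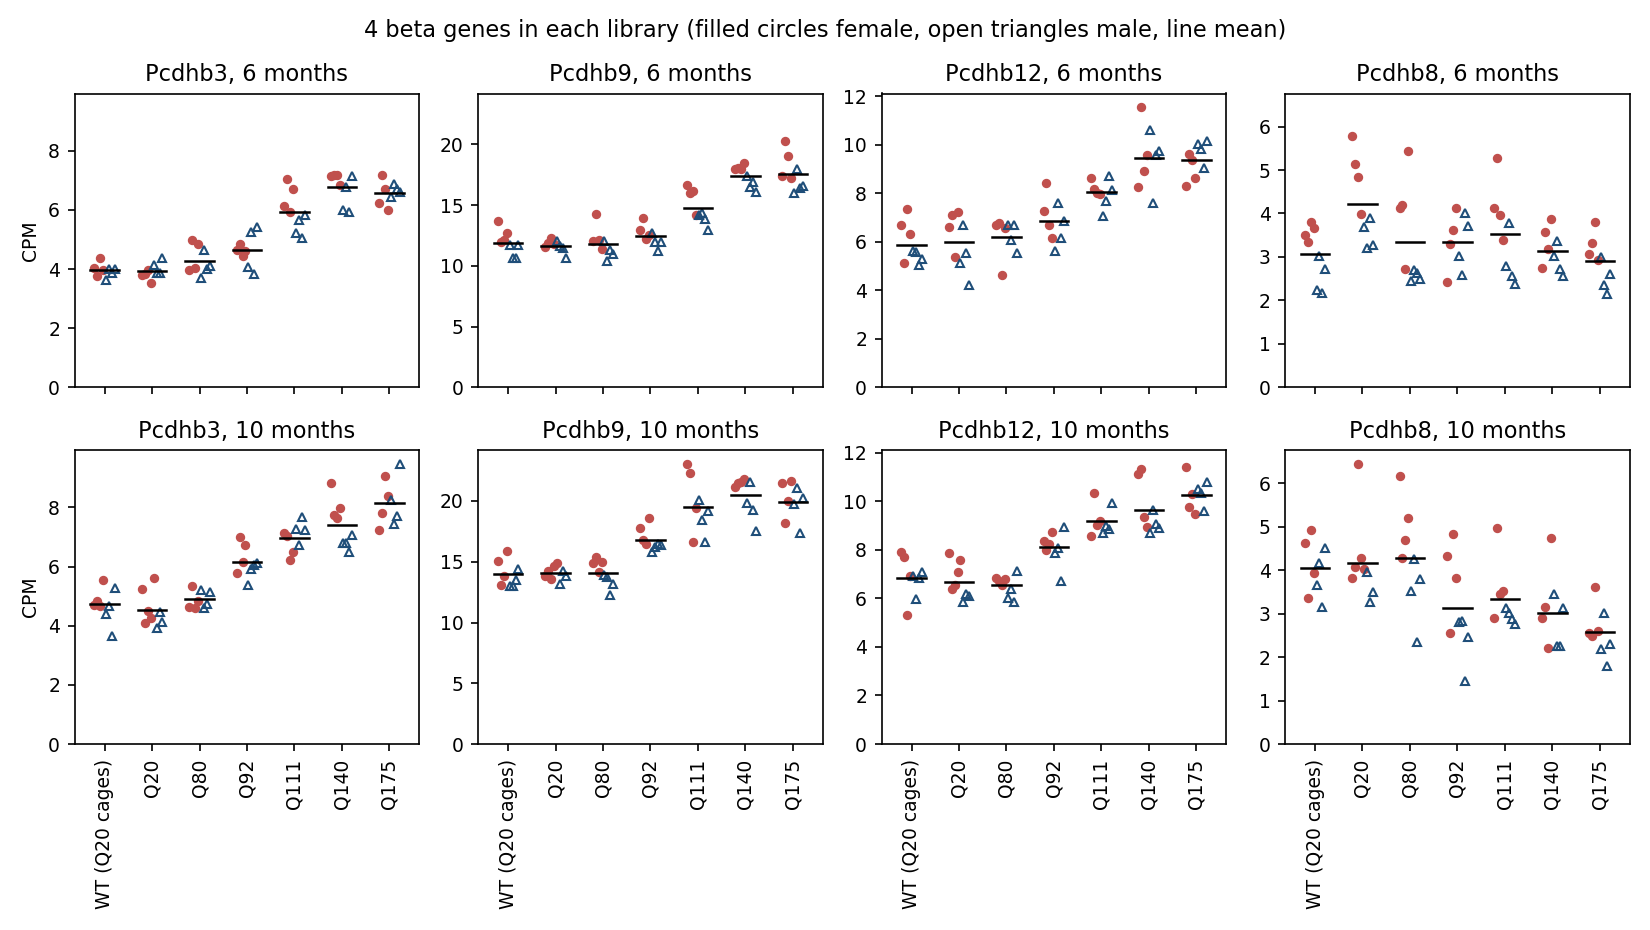
CPM (vertical axis from 0) of Pcdhb3, Pcdhb9, Pcdhb12 and Pcdhb8 in each library at 6 months (top) and 10 months (bottom), by line, with filled circles for females, open triangles for males and a line at the mean of 8 libraries. The first 3 genes step up from Q20 to Q111, Q140 and Q175, and Pcdhb8 steps down, with ranges that overlap.

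Pcdhb2, a low-level gene whose counts were whole in most libraries, had 1.26, 1.56 and 1.69 CPM (lowest, median, highest) in Q20 at 6 months. It had 2.13, 2.67 and 3.12 CPM in Q175, with no overlap, a log2 fold change of 0.75 ± 0.11 (SE, adjusted p = 4.56e-08). At 10 months it had 1.40, 1.78 and 2.22 CPM in Q20 and 1.65, 2.96 and 3.64 CPM in Q175. Here the ranges overlapped, with 7 of 8 Q175 libraries above the Q20 mean and a log2 fold change of 0.66 ± 0.14 (SE, adjusted p = 0.000274).

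Pcdhb12 had 4.23, 6.07 and 7.22 CPM in Q20 at 6 months and 8.29, 9.49 and 10.2 CPM in Q175, and at 10 months 5.83, 6.48 and 7.88 CPM against 9.49, 10.3 and 11.4 CPM. The 2 groups did not overlap at either age. The log2 fold change was 0.65 ± 0.079 (SE) at the younger of these ages (adjusted p = 5.93e-11) and 0.63 ± 0.064 at the older (adjusted p = 1.6e-11).

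Pcdhb21 had 2.37, 2.71 and 3.25 CPM in Q20 at 6 months and 3.65, 4.67 and 5.01 CPM in Q175. That difference, again without overlap, came to a log2 fold change of 0.69 ± 0.083 (SE, adjusted p = 4.66e-11). In the animals of 10 months the ranges overlapped and the log2 fold change was 0.50 ± 0.10 (SE, adjusted p = 0.000163).

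Pcdhb9 had 10.6, 11.7 and 12.3 CPM in Q20 at 6 months, 13, 14.3 and 16.6 CPM in Q111 and 16, 17.3 and 20.3 CPM in Q175. At 10 months it had 13.1, 14 and 14.9 CPM in Q20, 15.8, 16.4 and 18.6 CPM in Q92 and 17.3, 20.1 and 21.6 CPM in Q175. At 10 months Q92 had no overlap with Q20. The log2 fold change of Q175 was 0.59 ± 0.042 (SE, adjusted p = 1.57e-21) at 6 months and 0.52 ± 0.050 (adjusted p = 3.28e-12) at 10 months.

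Pcdhb17, the beta gene with the highest level per length, had 13.9, 15.1 and 16.6 CPM in Q20 at 6 months and 17.5, 18.5 and 20.3 CPM in Q175. The groups did not overlap, and the log2 fold change was 0.28 ± 0.047 (SE, adjusted p = 7.05e-07). The other beta genes called higher in Q175 at 6 months lay between 0.25 (Pcdhb7) and 0.48 (Pcdhb16 and Pcdhb22) on the log2 scale. Pcdhb13 and Pcdhb15, whose counts were whole in most libraries, rose by 0.38 and 0.34. Not called in that comparison were Pcdhb1 (-0.18), Pcdhb6 (0.12), Pcdhb10 (0.16), Pcdhb11 (0.05), Pcdhb14 (0.07) and Pcdhb18 (0.06).

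Pcdhb8 moved the other way. At 6 months it had 3.19, 3.95 and 5.79 CPM (lowest, median, highest) in Q20 and 2.14, 2.97 and 3.81 CPM in Q175. All 8 Q175 libraries lay below the Q20 mean but the ranges overlapped, and Pcdhb8 had a log2 fold change of -0.53 ± 0.13 (SE, adjusted p = 0.000653). At 10 months it had 3.28, 3.99 and 6.44 CPM in Q20 and 1.8, 2.52 and 3.62 CPM in Q175, a log2 fold change of -0.65 ± 0.15 (SE, adjusted p = 0.000799). In Q140 the log2 fold change was -0.42 at both ages (adjusted p = 0.011 and 0.0344).

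For Pcdhb8 the Q20 controls of 6 months can be set beside their own wild types. Wild types from the Q20 cages had 2.18, 3.18 and 3.81 CPM, and all 8 Q20 libraries lay above their mean, with a log2 fold change of 0.47 ± 0.13 (SE, adjusted p = 0.844). Against their own wild types Pcdhb8 was lower by -0.39 ± 0.13 in Q175 (SE, adjusted p = 0.0162), while the value for Q140 was -0.15 ± 0.13 (adjusted p = 0.472). Against the pooled wild types the call in Q140 was lost (-0.20).

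**Figure D4:**
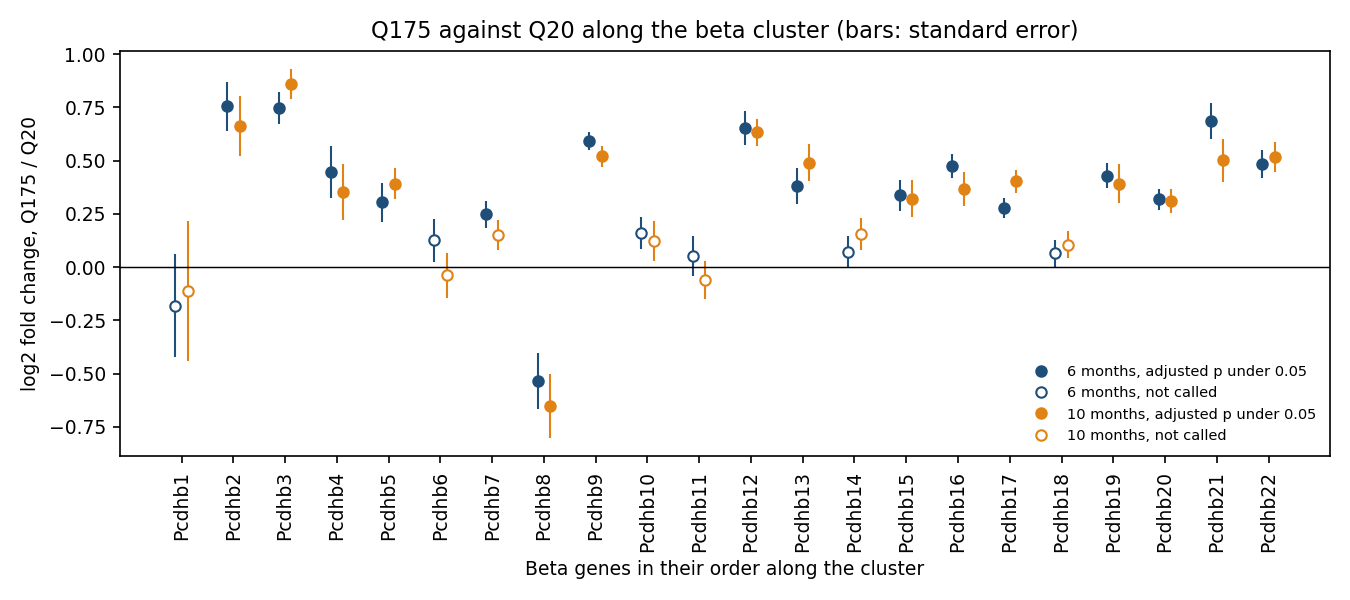
Log2 fold change of Q175 against Q20 for the 22 beta genes in their order along the cluster, at 6 months (blue) and 10 months (orange), with bars for the standard error and filled points for an adjusted p under 0.05. The 2 ages lie close together gene by gene, Pcdhb2 and Pcdhb3 are the highest at 6 months, and Pcdhb8 is the only called point below 0.

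The size of the rise differed from gene to gene in a like way at 6 and 10 months, in different animals. Across the 22 beta genes, which are not independent replicates, the Q175 log2 fold changes at the 2 ages had r = 0.96 (Spearman's rho 0.93). All 15 members called at 10 months were also called at 6 months, in the same direction. The share of all genes called at both ages was not counted. The Q175 values at 6 months had r = 0.12 with the order of the genes along the cluster. Their r was 0.09 with the log2 level per length in wild type. It was -0.19 with the share of libraries in which the count of a gene was not whole.

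The alpha row changed little. At 6 months it had 98.3, 105 and 107 CPM (lowest, median, highest) in Q20, 105, 111 and 120 CPM in Q111, 110, 119 and 126 CPM in Q140 and 114, 117 and 122 CPM in Q175. Q140 and Q175 did not overlap with Q20. The log2 fold changes were 0.11 ± 0.029 (SE) in Q111 (adjusted p = 0.00295), 0.19 ± 0.029 in Q140 (adjusted p = 4.34e-08) and 0.19 ± 0.028 in Q175 (adjusted p = 7.57e-08). At 10 months they were 0.14 in Q111 and 0.16 in Q140, both called, and 0.07 ± 0.031 in Q175 (adjusted p = 0.071), whose 95% interval ran from 0.014 to 0.136.

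The gamma row had 705.7, 740.3 and 783.2 CPM in Q20 at 6 months and 677.4, 714.5 and 768.6 CPM in Q175, ranges that overlapped. The log2 fold change was -0.05 ± 0.028 (SE, adjusted p = 0.136), with a 95% interval from -0.107 to 0.002. At 10 months it was -0.04 ± 0.034 (SE, adjusted p = 0.426). Since alpha and gamma isoforms share constant exons, a change of single isoforms within either row cannot be read from these values.

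Wild types from the same cages as each line gave a comparison at 6 months that does not use the Q20 libraries. Of the 24 members, 18 were higher in Q111 (4.28% of all genes, and 4.66% lower), 19 in Q140 (12.4%, and 11.7% lower) and 16 in Q175 (15.7%). Pcdhb8 was the 1 member lower, in Q175 (16.1% of all genes were lower). None was called in Q20, Q80 or Q92 by edgeR, DESeq2 or limma, and at an unadjusted p under 0.05 these had 2, 0 and 1 members higher and 0 lower. Of all genes 0.017%, 0.0227% and 0.017% were called higher and 0.00567%, 0.0283% and 0.034% lower in these 3 lines. Pcdhb3 was higher by 0.62 in Q111, 0.64 in Q140 and 0.70 in Q175 on the log2 scale, and in each the 8 libraries lay above all 8 wild types. The beta values of Q140 and of Q175, each against its own wild types, had r = 0.94 (rho 0.93) over the 22 genes. Those of Q111 and Q140 had r = 0.80 (rho 0.65). In both Q140 and Q175 16 members were called, and the share of all genes called in both was not counted.

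No member was called among the wild-type cohorts, or between Q20, which carries a knock-in allele, and its own wild types. Among the 6 wild-type groups of 6 months none was called by edgeR or limma (1.28% of all genes were called by edgeR), and 3 had an unadjusted p under 0.05. Q20 against its own wild types had 0 calls at 2 months and at 10 months in edgeR, DESeq2 and limma, with 2 members lower at an unadjusted p under 0.05 at each age. Of all genes 0.0116% were called higher and 0 lower at 10 months, and 0 were called at 2 months.

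Q80 and Q92 have the shorter of the expanded repeats. In Q80 0 members were called at 6 months (0.204% of all genes were higher and 0.085% lower) and 0 at 10 months (0.0932% higher, 0.0291% lower). At an unadjusted p under 0.05 there were 0 higher and 2 lower at 6 months and 1 higher and 2 lower at 10 months, and DESeq2 and limma also gave 0 calls. In Q92 at 10 months 5 members were higher, where 0.338% of all genes were higher and 0.78% lower: Pcdhb3 (0.45), Pcdhb13 (0.33), Pcdhb12 (0.29), Pcdhb17 (0.28) and Pcdhb9 (0.27). At an unadjusted p under 0.05 there were 13 higher and 1 lower, and 23 of 24 estimates were above 0, with a median of 0.19. Fitted on the 2 groups alone, 3 of these 5 were called.

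In Q92 at 6 months Pcdhb3 was higher (0.24 ± 0.076 SE, adjusted p = 0.043; 3% of all genes were higher) and the gamma row lower (-0.10 ± 0.028, adjusted p = 0.0238; 2.99% lower). Of 12 markers of cortical excitatory neurons, 8 were also higher in Q92 at this age, with a median log2 fold change of 1.52. Their summed level ran from 280.3 to 950.1 CPM in Q92 and from 254.5 to 430.1 CPM in Q20. With scores of cortical, thalamic and choroid plexus markers as covariates neither call remained (0 members called). The Pcdhb3 estimate was then 0.24 and that of the gamma row -0.06.

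Across the 6 knock-in lines, level was also tested as a straight line over repeat length. This test took the libraries of a line as independent, so its SE and p-values do not measure the spread between lines. At 6 months 18 members had a rising slope (20.3% of all genes) and Pcdhb8 a falling one (19.6%), and at 10 months 18 rose (15.9%) and Pcdhb8 fell (16.9%). Per 10 repeats, the slope of Pcdhb3 was 0.058 ± 0.0053 log2 at 6 months (SE, adjusted p = 7.93e-13) and 0.060 ± 0.0049 log2 at 10 months (adjusted p = 1.44e-13). For Pcdhb6 at 6 months the slope was 0.015 (adjusted p = 0.0491), and with replicate numbers as a block its adjusted p was 0.056.

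The 4 lines with the longest repeats were also tested against their neighbours. At 6 months 15 members were higher in Q111 than in Q92 (2.66% of all genes, and 3.42% lower), led by Pcdhb2 (0.51 ± 0.12 SE), Pcdhb16 (0.38 ± 0.056) and Pcdhb6 (0.38 ± 0.10). From Q111 to Q140 3 were higher (0.788% of all genes, and 0.884% lower): Pcdhb9 (0.24), Pcdhb20 (0.20) and Pcdhb21 (0.30). From Q140 to Q175 none was called by edgeR, DESeq2 or limma, with 0 higher and 2 lower at an unadjusted p under 0.05. Of all genes 0.108% were called higher and 0.102% lower in that step.

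At 10 months 7 members were higher in Q111 than in Q92 (1.26% of all genes, and 2.63% lower), among them Pcdhb2 (0.47), Pcdhb22 (0.42) and Pcdhb21 (0.41). No member was called from Q111 to Q140 (1 higher and 0 lower at an unadjusted p under 0.05; 0.0641% of all genes called higher and 0.0175% lower) or from Q140 to Q175 (1 higher and 3 lower; 0.402% and 0.0116%). DESeq2 and limma gave 0 calls too.

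At 2 months no member was called in any line against Q20 by edgeR, DESeq2 or limma. At an unadjusted p under 0.05 members higher numbered 0 in Q80, 1 in Q92, 0 in Q111, 2 in Q140 and 9 in Q175, with 0 lower in each. Few genes of any kind were called at this age: 0.0118% were higher in Q80, 0.00588% higher and 0.0118% lower in Q111, 0.0294% higher and 0.188% lower in Q175, and 0 in Q92 and Q140. The estimates were above 0 for 19 of 24 members in Q80, 18 in Q92, 22 in Q111, 24 in Q140 and 23 in Q175. All of them share the Q20 libraries, which against their own wild types had estimates above 0 for 4 of 24 members, with a median of -0.11. Pcdhb3 had 3.5, 4.14 and 4.74 CPM (lowest, median, highest) in Q20 and 3.90, 5.10 and 5.61 CPM in Q175, ranges that overlapped, with a log2 fold change of 0.27 ± 0.075 (SE, adjusted p = 0.165). Its slope over repeat length was 0.018 ± 0.0047 (SE, adjusted p = 0.0911), where 0.0472% of all genes rose and 0.307% fell. In this trend Pcdhb3 was called under 8 of 13 other settings. Among them were DESeq2, limma, and the fits without the libraries that stood apart or without those of high mitochondrial share.

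The 7 libraries of 2 months with a high mitochondrial share had a lower mean than the other 49 in 23 of the 24 members, all but Pcdhb17. Pcdhb21 had 0.935 to 1.73 CPM in the 7 against 1.95 to 4.62 CPM in the others, Pcdhb19 4.65 to 7.38 against 8.11 to 14.7 CPM, and Pcdhb22 1.91 to 3.69 against 4.45 to 6.98 CPM. These 3 had no overlap. The log2 ratio of means was -1.95 for Pcdhb2, -1.88 for Pcdhb1 and -1.46 for Pcdhb21, and near 0 for Pcdhb3 (-0.03), Pcdhb20 (-0.02) and Pcdhb17 (0.04). The part of this difference in the comparisons of 2 months was not tested beyond leaving these 7 libraries out, together with Q80 M3. That gave 0 calls against Q20 as well.

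The Q175 effect itself was tested between ages. It was larger at 6 than at 2 months for Pcdhb3 (by 0.47 ± 0.10 log2, SE, adjusted p = 0.00249), Pcdhb12 (0.46 ± 0.11, adjusted p = 0.00507) and Pcdhb9 (0.44 ± 0.076, adjusted p = 9.31e-05), where 2.51% of all genes had a difference in that direction. For Pcdhb8 it was more negative, by -0.81 ± 0.19 (SE, adjusted p = 0.00489; 4.62% of all genes). Without the 2-month libraries that stood apart 10 members were called. From 2 to 10 months Pcdhb3, Pcdhb12, Pcdhb9 and Pcdhb8 were called, with differences of 0.57, 0.44, 0.36 and -0.94 (1.4% of all genes upward, 3.41% downward). Between 6 and 10 months none was called by edgeR, DESeq2 or limma, with 0 higher and 1 lower at an unadjusted p under 0.05 and 0.0465% of all genes called higher and 0.0174% lower.

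Several beta genes were higher in females than in males, over all lines and wild types of an age. At 6 months 13 members were higher in females and 0 lower (9.81% and 8.73% of all genes), all of them beta genes. Pcdhb1 had the largest estimate, a log2 fold change of 0.51 ± 0.10 (SE, adjusted p = 0.000116), at counts of 0 to 28 per library in the whole study. Pcdhb6 had 3.54, 5.31 and 7.39 CPM (lowest, median, highest) in 48 females and 2.69, 4.24 and 5.84 CPM in 48 males, a log2 fold change of 0.31 ± 0.041 (SE, adjusted p = 1.54e-08).

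Pcdhb8 had 2.44, 3.88 and 5.79 CPM in females and 1.93, 3.0 and 4.76 CPM in males at 6 months, a log2 fold change of 0.36 ± 0.055 (SE, adjusted p = 4.66e-07). Pcdhb9 had 10.9, 12.8 and 20.3 CPM in females and 10.2, 11.7 and 17.9 CPM in males (0.15 ± 0.017, adjusted p = 2.29e-10). For Pcdhb6, Pcdhb8 and Pcdhb9 the ranges overlapped, but the female mean was the higher in 12 of 12 groups at 6 months and in 7 of 7 at 2 and at 10 months. The other 9 were Pcdhb11 (0.24), Pcdhb10 (0.19), Pcdhb15 (0.19), Pcdhb2 (0.16), Pcdhb7 (0.12), Pcdhb12 (0.12), Pcdhb14 (0.11), Pcdhb18 (0.11) and Pcdhb17 (0.08).

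**Figure D5:**
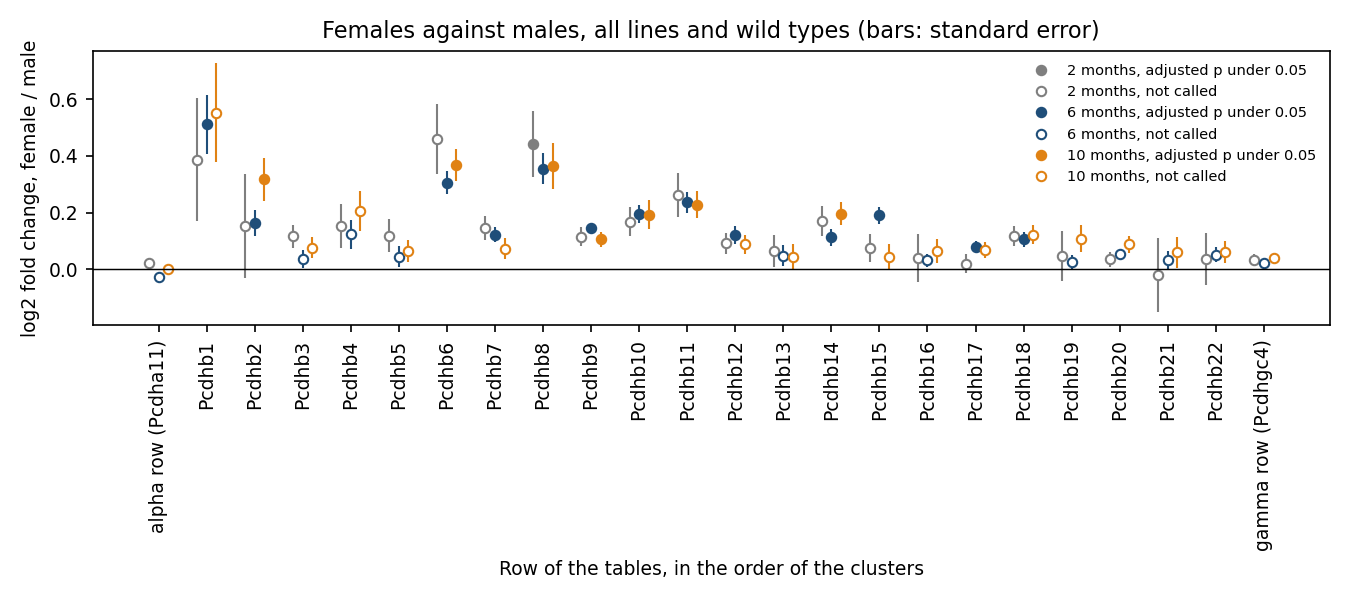
Log2 fold change of females against males for the 24 rows in cluster order at 2 months (grey), 6 months (blue) and 10 months (orange), with bars for the standard error and filled points for an adjusted p under 0.05. Every filled point is a beta gene above 0, and the alpha and gamma rows lie near 0.

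At 10 months 7 members were higher in females (0.944% of all genes) and 0 lower (0.332%): Pcdhb6 (0.37), Pcdhb8 (0.36), Pcdhb2 (0.32), Pcdhb11 (0.23), Pcdhb14 (0.20), Pcdhb10 (0.19) and Pcdhb9 (0.11). At 2 months Pcdhb8 alone was called (0.44 ± 0.12 SE, adjusted p = 0.0468; 0.629% of all genes were higher and 0.294% lower), with 11 members higher at an unadjusted p under 0.05. With RLE scaling or with no filter on low counts 0 members were called. Of the 7 libraries with a high mitochondrial share 5 were male, and Pcdhb8 had a mean of 1.55 CPM in the 7 and 2.29 CPM in the other 49. Without the 7 and without Q80 M3, which did not match its sex label, 3 members were called, Pcdhb8 among them. Leaving out the 7 alone was not tested. Across the 22 beta genes the female to male differences at 6 months had r = 0.90 with those at 10 months and r = 0.87 with those at 2 months, all in different animals. They had r = -0.71 (rho -0.58) with the Q175 effect at 10 months.

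The Q175 effect itself was not found to differ by sex. The test of that difference called 0 members at 2, 6 and 10 months in edgeR (0% of all genes), with 2, 2 and 1 members lower and 0 higher at an unadjusted p under 0.05. For Pcdhb12 at 6 months the estimate in females minus males was -0.41 ± 0.15 log2 (SE, adjusted p = 0.882), and for Pcdhb3 it was 0.07 ± 0.15 (adjusted p = 0.977).

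Other genes of the pathway were read from lists, in Q175 against Q20. Of 28 chromatin and looping factors that act on the clusters, 8 were higher and 7 lower at 6 months, where 18% of all genes were higher and 18.2% lower, with a median log2 fold change of 0.04. The called genes of largest change were the DNA methyltransferase Dnmt3a (-0.28), the zinc finger protein Wiz (0.27) and the methylcytosine dioxygenases Tet1 (0.24) and Tet3 (-0.17). At 10 months 2 were higher and 2 lower, where 12.4% of all genes were higher and 12.1% lower. Of 28 partners of the protocadherin tails in signalling, 5 were higher and 9 lower at 6 months, and 4 and 7 at 10 months, beside the same shares of all genes. Among them were Cyfip2, a subunit of the actin-regulating WAVE complex (-0.35), the kinase Ptk2b (-0.34) and the actin-binding kinase C substrate Marcks (0.32).

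Of 13 non-clustered protocadherins tested, 7 were higher and 1 lower at 6 months, with a median of 0.25. At 10 months 4 were higher and 1 lower, with a median of -0.03. Of all genes 18% were higher and 18.2% lower at 6 months, and 12.4% and 12.1% at 10 months. Pcdh20 (1.0) and Pcdh19 (0.72) had the largest changes at 6 months. Of 27 other genes listed as in or near the clusters, 7 were higher and 4 lower at 6 months, beside the same shares of all genes. Their median was 0.015. Positions of the listed genes were not checked, and Relch (0.06, not called) lies on another chromosome. Pcdh1 (-0.05) and Pcdh12 (0.14), neither of them called, belong to both of these lists. Among the called genes of the 27, the largest changes were in Kctd16 (-0.33), Taf7 (-0.21) and the histidyl-tRNA synthetase gene Hars (0.18). The Taf7 gene lies between the beta and gamma clusters.

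Striatal projection neuron markers fell in the same comparison. Of 20 such markers, 19 were lower in Q175 at 6 months and 19 at 10 months, with median log2 fold changes of -0.79 and -0.66. Their summed level at 6 months ran from 9470 to 10814 CPM in Q175 and from 16373 to 19293 CPM in Q20, and no marker was at 0. Of 12 cortical markers 1 was higher and 0 lower in Q175 at 6 months. In bulk tissue fewer cells of a type and less RNA per cell cannot be told apart, and the part of the neuron markers' change in the protocadherin values was not tested.

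Over the 26 group means the genes outside the clusters whose log2 level followed the beta mean most closely were Nr3c2 (r = 0.97), Scaper (r = 0.96), Rmc1 (r = 0.96), Pcyt1b (r = 0.96) and Cyp4x1 (r = 0.96). Among the members themselves, Pcdhb5 (r = 0.97) and Pcdhb9 (r = 0.96) were closest to that mean, in which they are included, and the alpha row had r = 0.95. Pcdhb1 (r = 0.16), Pcdhb8 (r = 0.36) and the gamma row (r = 0.12) followed it least. The 26 groups differ in genotype, age and cage, and the labels name no sequencing set. Within groups, the mean of each sex in each group was taken off. The median r over 231 pairs of beta genes was then 0.15 over 96 libraries at 6 months and 0.22 over 56 at 10 months. At 2 months it was 0.29 over 56 libraries, with 57 pairs over 0.5, and 0.15, with 15 such pairs, without the libraries that stood apart. Pcdhb19 and Pcdhb21 had the highest r at 2 months, 0.91, or 0.80 without those libraries.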

How the data were processed

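Striatal polyadenylated RNA of 208 libraries was analysed. Reads passed through CASAVA 1.8.2, per the submitters' processing notes. The aligner was not given in the sources used here, nor the counter or build. For 39179 gene IDs the deposited tables give the authors' expected counts, of which 32.7% of the values above 0 were not whole, and the authors' FPKM for the same libraries. Expected counts were rounded for the count models, and FPKM was used for levels per length and in limma.

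Libraries were grouped by genotype, age and cage. Each age was fitted with edgeR 4.0.16 in R 4.3.3 (TMM scaling, filterByExpr with a minimum count of 10 and total of 15, robust quasi-likelihood test, a term per group, sex as covariate), in 42 comparisons, each adjusted by Benjamini-Hochberg over all genes tested (17006 at 2 months, 17642 at 6, 17170 at 10); all 24 members were tested at each age. The trend used the 6 knock-in groups, and the age difference the Q20 and Q175 groups. SE is the log2 fold change over the square root of F. Alternatives were DESeq2 1.42.0, limma 3.58.1 on log2(FPKM + 1) with at least 1 FPKM in 8 libraries, a pseudocount of 0.1, RLE scaling, no filter, tissue scores, a replicate block, other references and libraries left out. Those without libraries over 16% mitochondrial counts, and all those of the sex test, were chosen after seeing the data. The scripts were tested on simulated data.

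Each library is a separate labelled sample, and p-values measure the spread between these. No 2 libraries of a group agreed within counting noise (lowest chi-square 3.71 per degree of freedom over 728 pairs). Same-numbered Q20 and Q175 libraries of 1 sex deviated together at 6 months (r of 0.118 to 0.283 over 8 pairs) but not at the other ages (medians -0.16 and 0.07), so the numbers were taken to pair samples at 6 months only; where the pairing comes from is not stated. The reported fits had no block at any age, and the fit with the block was an alternative at every age.

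The members and lists were chosen with earlier results of these data known. Members given in full were the 4 with the largest called changes in Q175 at 6 and at 10 months in each cluster, those called against the direction of their cluster, the row with a C-type isoform name, the highest per cluster by FPKM, and those called between sexes or wild-type groups. Gene symbols matched 37607 IDs. Depth was 29.1 to 49.6 M counts (M, 1e+06), and errors cover no PCR copies.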

Additional observations from a re-analysis of the deposited data

Results flagged for a closer look

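In 37 of the 624 pairs of a member and a group of 8, 1 library lay far from the other 7 for that gene; chance gives about 1 in 20. The libraries are named by line, age, sex and replicate, and the values are CPM.

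At 2 months Q80 M5, 1 of the libraries with a high mitochondrial share, was far below its group for Pcdhb2 (0.0617), Pcdhb5 (1.95), Pcdhb6 (0.123), Pcdhb8 (0.123), Pcdhb11 (1.39), Pcdhb13 (5.19), Pcdhb16 (4.54), Pcdhb19 (6.36), Pcdhb22 (1.91) and the gamma row (503). Q111 F2 was low for Pcdhb19 (7.38), Q140 F4 low for Pcdhb16 (6.07) and Pcdhb21 (1.95), Q140 M1 stood apart for Pcdhb12 (7.55) and Q20 F1 for Pcdhb20 (16.3).

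At 6 months Q111 F2 stood apart for Pcdhb14 (16.5), Pcdhb15 (5.63) and Pcdhb18 (12), and Q92 M1 for Pcdhb16 (9.58), Pcdhb21 (3.86) and the gamma row (631). Single genes stood apart in Q111 M4 (Pcdhb19, 10.2), Q140 M2 (gamma row, 660), Q20 M1 (Pcdhb2, 1.26) and Q80 F2 (Pcdhb9, 14.3). Among wild types they were Pcdhb3 in M4 (5.34) and Pcdhb12 in F1 (8.32) of the Q80 cages, Pcdhb4 in F1 of the Q111 cages (2.17) and Pcdhb7 in F3 of the Q175 cages (9.9).

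At 10 months Q111 F2 stood apart for Pcdhb4 (2.07) and Pcdhb8 (4.96), Q111 F3 for Pcdhb1 (0.47), and wild type F2 for Pcdhb1 (0.763). The others were Q20 F3 for Pcdhb8 (6.44), Q80 M3 for the alpha row (96.2), Q92 F3 for Pcdhb22 (4.45) and Q140 F2 for Pcdhb15 (5.26).

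The Q175 effect differed between ages, by the test of the difference itself in edgeR, for 4 beta genes. From 2 to 6 months it rose by 0.47 log2 for Pcdhb3, 0.44 for Pcdhb9 and 0.46 for Pcdhb12, and Pcdhb8 changed by -0.81. From 2 to 10 months the values were 0.57, 0.36, 0.44 and -0.94.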

How the results depend on the processing

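Of 1584 values of called members under other settings, 1538 kept their direction and their call, 46 kept the direction but lost the call, and 0 turned. The counts for Q111, Q140 and Q175 stayed within 1.5 times of the reported ones under every setting run. This covers Q20 as the reference at 6 and 10 months and own wild types at 6 months. The lowest was 11 for Q111 against Q20 at 6 months, without Q92 F2, Q80 F3 and Q20 M4, where 16 were reported. The count of members called in Q92 against Q20 at 6 months (2 reported) was 1 with pooled wild types as the reference, with no filter on low counts, with limma-trend on log2(FPKM + 1), on log2(FPKM + 0.1) and with no filter, and without Q92 F2, Q80 F3 and Q20 M4; it was 0 with tissue scores as covariates and with only the 2 groups in the fit. Q92 against Q20 at 10 months gave 3 (5 reported) with only the 2 groups in the fit. Q140 against Q111 at 6 months gave 5 with limma-trend on log2(FPKM + 1) and 6 with tissue scores (3 reported). The trend at 2 months (0 reported) gave 1, Pcdhb3, with DESeq2, the 3 limma settings, the rank of the line, without Q20, without the libraries that stood apart and without those over 16% mitochondrial counts. The 6 minus 2 months difference of the Q175 effect gave 10 (4 reported) without the libraries that stood apart. Female against male at 2 months (1 reported) gave 0 with RLE scaling and with no filter, 2 with DESeq2, limma, tissue scores and without the libraries that stood apart, and 3 without those over 16% mitochondrial counts. The replicate block moved no count by over 1.5 times (7 in Q92 against Q20 at 10 months, where 5 were reported) and took the call from 1 of 145 member values, Pcdhb6 in the 6-month trend (0.015, adjusted p = 0.056). The causes of these shifts were not tested. Depth limits Pcdhb1 most, with a median of 11 counts per library.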
